A study of Mus musculus with 16 samples.

Results

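The genes described here are 40 interferon-stimulated and antigen presentation genes, followed in cultured mouse aortic smooth muscle cells with and without Hey2 during treatment with PDGF-BB. They were taken by gene symbol: a probe set counted as a member when the array's platform annotation gave it exactly 1 symbol and that symbol was on the list. By this rule 38 of the 40 genes had 66 of the 45101 probe sets. A gene entered the tests with a signal above 16, which is the 40th percentile of all values, on at least 3 arrays. Of the 14299 genes tested on 16 arrays, 37 were members. Ifi44 and Isg15 were not tested because no probe set carried their symbol alone, and Mx2 exceeded the filter signal on 1 array. Members that passed the filter only through the arrays where they were bright are pointed out below.

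Interferons are secreted proteins that act through cell surface receptors, JAK kinases and STAT transcription factors. Type I interferons lead to a complex that contains STAT2 and IRF9 and binds a DNA element called the ISRE, whereas interferon gamma acts through the GAS element. The genes switched on in this way encode sensors of viral RNA, proteins that block viral replication, GTPases that attack the compartments of intracellular pathogens, and the machinery that cuts and loads peptides onto MHC class I molecules. In cultured vascular smooth muscle cells interferon gamma is known to induce MHC genes and to slow growth.

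RNA abundance was measured on Affymetrix arrays in 16 cultures, 8 of wild-type cells and 8 of Hey2 knockout cells, Hey2 being a transcriptional repressor of the Notch pathway. Both groups were smooth muscle cells from digested mouse aortas stripped of adventitia, of mixed C57BL/6 and 129SvJ background and, as labelled, between passages 10 and 20. All cultures were grown to near confluence, kept for 48 hours in low serum and given human PDGF-BB at 5 ng/ml, a growth factor that drives smooth muscle cells to divide and migrate. RNA was taken at 0, 15, 30, 60, 120, 180, 240 and 480 min, with 1 array per genotype and time. The labels name no interferon treatment, and no untreated time course was analysed here. The labels give no number of animals or cell isolates per genotype, so isolate and genotype cannot be told apart. The genotype p-values rest on how the difference between genotypes varied over the time points, a variation that may be technical. The p-values for late against early times rest on the spread among the times of each kind, which includes real change with time.

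All levels below are quantile-normalized linear signals, and differences are on the scale of log2(signal + 4.856), which understates the change of dim genes. Deposited brightness differed between arrays, with 2% trimmed means of 81.0 to 342.5, and with 16 arrays their number sets how precise a value can be. The Hey2 probe set read from 14.0 to 113.3 on wild-type arrays and from 23.3 to 63.3 on knockout arrays, and it is not known here to lie in the deleted part, so it does not check the genotype labels. The wild-type libraries labelled 60 and 480 min went against the time order. The immediate early gene Fos read 212 and 7703 in these libraries, 60 min first, and 6379.5 and 638 in the knockout at the same times. Labels were kept as given, and results that rest on these times are also given without them. Lower signals in the knockout were called for 6 of 8 markers of smooth muscle, among them Acta2 and Myh11. Myh11 entered the test through the wild-type arrays, its highest knockout signal being 12.6. The summed marker signal was 12416 to 16472 in the wild type and 6555 to 9594 in the knockout.

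The promoters of 8 members are shown, all of them with an ISRE match as defined below. Of these, Igtp, Irgm2, Gbp2, Gbp3, Oas1a and Bst2 were higher in the knockout, Ifit3 fell with time, and Irgm1 did not pass the genotype test. Other members with clear contrasts are not shown. Among them, Ifit1 held 2 ISRE matches, Ifih1 and Trim25 held neither match, and Ifit2 held a GAS match alone. Each is the 250 bases before the annotated start from RefSeq, build GRCm38.p6, printed 5′ to 3′ on the strand of the gene. Capitals mark matches to a form of the ISRE, the bases GAAA repeated after a gap of 2 bases, or to a form of the GAS element, TTCNNNGAA, both searched on either strand.
Igtp, chr11:58199306-58199555, plus strand: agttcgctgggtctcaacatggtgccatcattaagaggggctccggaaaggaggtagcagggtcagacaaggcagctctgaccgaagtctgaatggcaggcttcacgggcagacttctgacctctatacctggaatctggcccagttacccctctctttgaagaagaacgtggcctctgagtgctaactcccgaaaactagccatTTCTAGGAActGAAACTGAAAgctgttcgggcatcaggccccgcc
Irgm2, chr11:58214727-58214976, plus strand: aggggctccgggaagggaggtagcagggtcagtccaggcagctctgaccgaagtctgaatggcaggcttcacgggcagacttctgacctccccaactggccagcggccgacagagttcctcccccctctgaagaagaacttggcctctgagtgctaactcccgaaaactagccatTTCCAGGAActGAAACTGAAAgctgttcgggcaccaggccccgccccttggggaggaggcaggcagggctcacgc
Irgm1, chr11:48871421-48871670, minus strand: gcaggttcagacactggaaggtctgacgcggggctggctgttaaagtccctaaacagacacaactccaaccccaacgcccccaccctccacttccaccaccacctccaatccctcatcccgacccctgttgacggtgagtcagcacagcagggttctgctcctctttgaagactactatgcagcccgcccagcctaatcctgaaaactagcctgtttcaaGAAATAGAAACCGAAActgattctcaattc
Gbp2, chr3:142620413-142620662, plus strand: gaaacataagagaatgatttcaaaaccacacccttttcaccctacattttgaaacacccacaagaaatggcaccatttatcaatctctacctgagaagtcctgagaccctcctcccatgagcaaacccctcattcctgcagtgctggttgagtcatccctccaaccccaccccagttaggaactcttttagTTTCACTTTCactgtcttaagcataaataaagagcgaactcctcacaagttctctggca
Gbp3, chr3:142559794-142560043, plus strand: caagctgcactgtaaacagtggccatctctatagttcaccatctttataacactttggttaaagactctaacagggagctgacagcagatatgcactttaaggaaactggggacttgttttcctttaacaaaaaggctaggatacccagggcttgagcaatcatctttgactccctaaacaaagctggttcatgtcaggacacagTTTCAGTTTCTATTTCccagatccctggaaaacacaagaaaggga
Oas1a, chr5:120907526-120907775, minus strand: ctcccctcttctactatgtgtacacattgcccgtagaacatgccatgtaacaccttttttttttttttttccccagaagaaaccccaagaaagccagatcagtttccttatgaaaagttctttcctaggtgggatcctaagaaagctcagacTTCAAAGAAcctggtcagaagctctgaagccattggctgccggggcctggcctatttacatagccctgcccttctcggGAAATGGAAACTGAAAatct
Bst2, chr8:71537473-71537722, minus strand: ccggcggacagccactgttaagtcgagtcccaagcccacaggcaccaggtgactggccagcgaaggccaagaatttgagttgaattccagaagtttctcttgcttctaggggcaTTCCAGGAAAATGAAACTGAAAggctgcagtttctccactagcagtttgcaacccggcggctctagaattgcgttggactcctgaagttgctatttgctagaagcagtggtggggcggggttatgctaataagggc
Ifit3, chr19:34583279-34583528, plus strand: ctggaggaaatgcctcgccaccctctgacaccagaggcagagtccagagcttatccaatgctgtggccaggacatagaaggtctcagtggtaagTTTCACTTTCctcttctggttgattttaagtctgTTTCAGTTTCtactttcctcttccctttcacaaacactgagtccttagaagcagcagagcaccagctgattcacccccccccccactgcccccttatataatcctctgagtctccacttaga
In Igtp the GAS match began 45 bases and the ISRE match 34 bases before the start, and in Irgm2 the same pair began 75 and 64 bases before it. In Bst2 the GAS match, 136 bases before the start, ran into the first of a pair of overlapping ISRE matches at 130 and 124 bases. Irgm1, Gbp3 and Oas1a also held pairs of overlapping ISRE matches, and the capitals of Ifit3 mark a pair that did not overlap. A window was used for 32 of the 40 members. An ISRE match was present in 13 of these 32 (40.6%) and a GAS match in 11 (34.4%), against 3.46% and 8.13% of 27025 RefSeq genes. These are letter matches, not measured binding. Among members higher in the knockout, 7 of 11 held an ISRE match and 5 a GAS match, and among the other tested members 5 of 19 and 6 of 19 did. Of those 11, Oas1a held both matches and Oasl2 neither, and both genes entered the genotype test through the knockout arrays. The list was chosen for interferon response, and a difference between these groups of members was not tested.

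Several interferon-stimulated genes, among them Igtp, Gbp2 and Bst2, were higher in the knockout throughout the time course. Of the 37 tested members, 14 were higher and 2 lower in the knockout by limma with time as a factor. Among all 14299 genes, 16.5% were called higher and 14.1% lower. The median difference of the members was 0.24, and that of all genes -0.02. Of the 14, Mx1, Oasl2 and Oas1a exceeded the filter signal on fewer than 3 wild-type arrays and so entered the test through the knockout arrays. Among the 32 members above the filter on at least 3 arrays of each genotype, 11 were higher and 2 lower, where 17.4% and 15.4% of 12611 genes were called. This restriction was chosen after seeing the data. At a threshold of 2-fold, 11 of the 16 calls were left, and 1003 of the 4381 calls among all 14299 genes. Without the 60 and 480 min arrays, 17 of 36 members were higher and 4 lower, where 21.5% and 20.8% of 13913 genes were called. All 8 knockout arrays lay above all 8 wild-type arrays for 6 members, Bst2, Gbp2, Igtp, Isg20, Oas1a and Rtp4, and below them for 1, Trim25. Such separation was seen for 5.38% and 3.08% of all genes. At every time as labelled, 11 members were higher and 2 lower in the knockout. The share of all genes with this pattern was not counted, so these counts have no reference. In the groups of members below, a direction with 0 calls also had 0 at an unadjusted limma p under 0.05 unless stated.

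**Figure D1:**
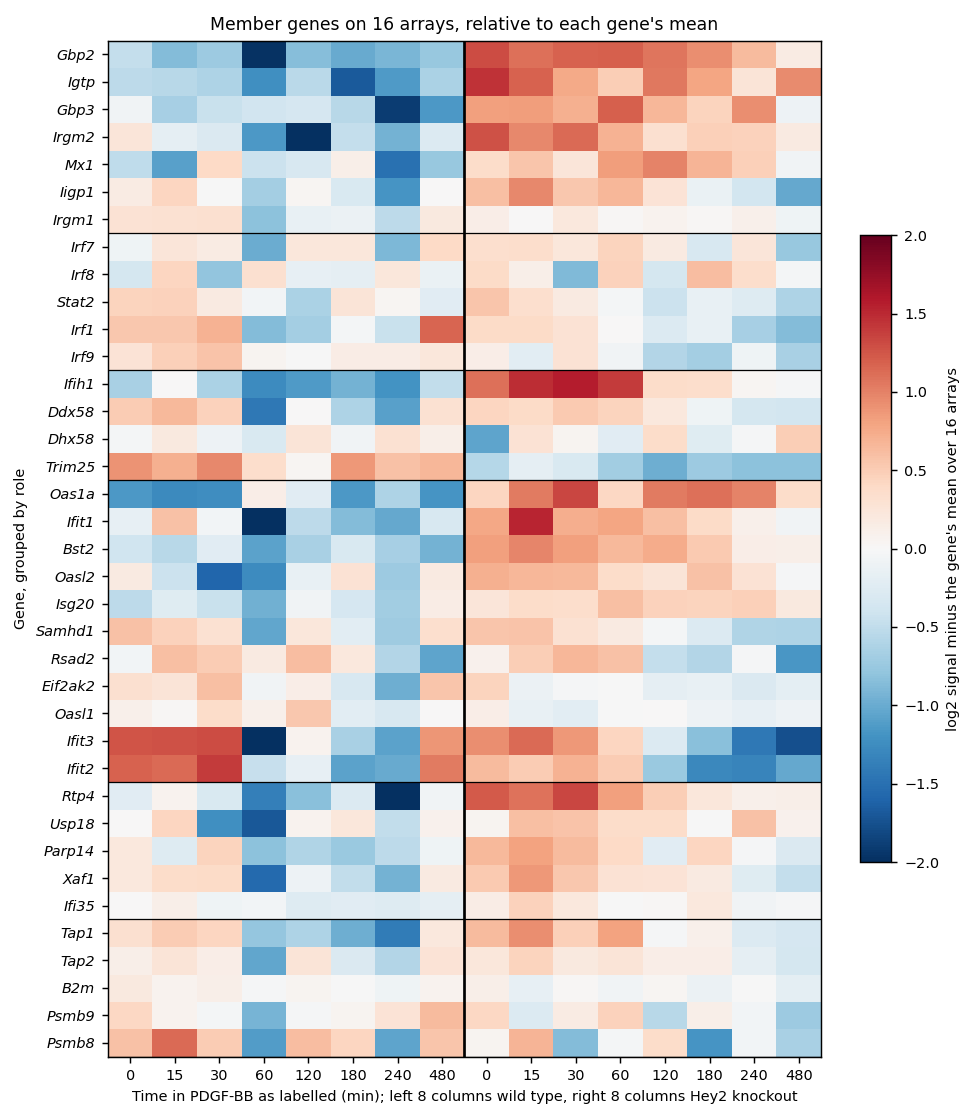
Log2 signal of each of the 37 tested members (rows, grouped by role) on the 16 arrays (columns, by genotype and labelled time in min), relative to the gene's own mean over all arrays. Gbp2, Igtp, Bst2 and Oas1a are redder on the 8 knockout arrays, Trim25 is redder on the wild-type arrays, and Ifit2 and Ifit3 are redder at 0 to 30 min than at 120 to 240 min in both genotypes.

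**Figure D2:**
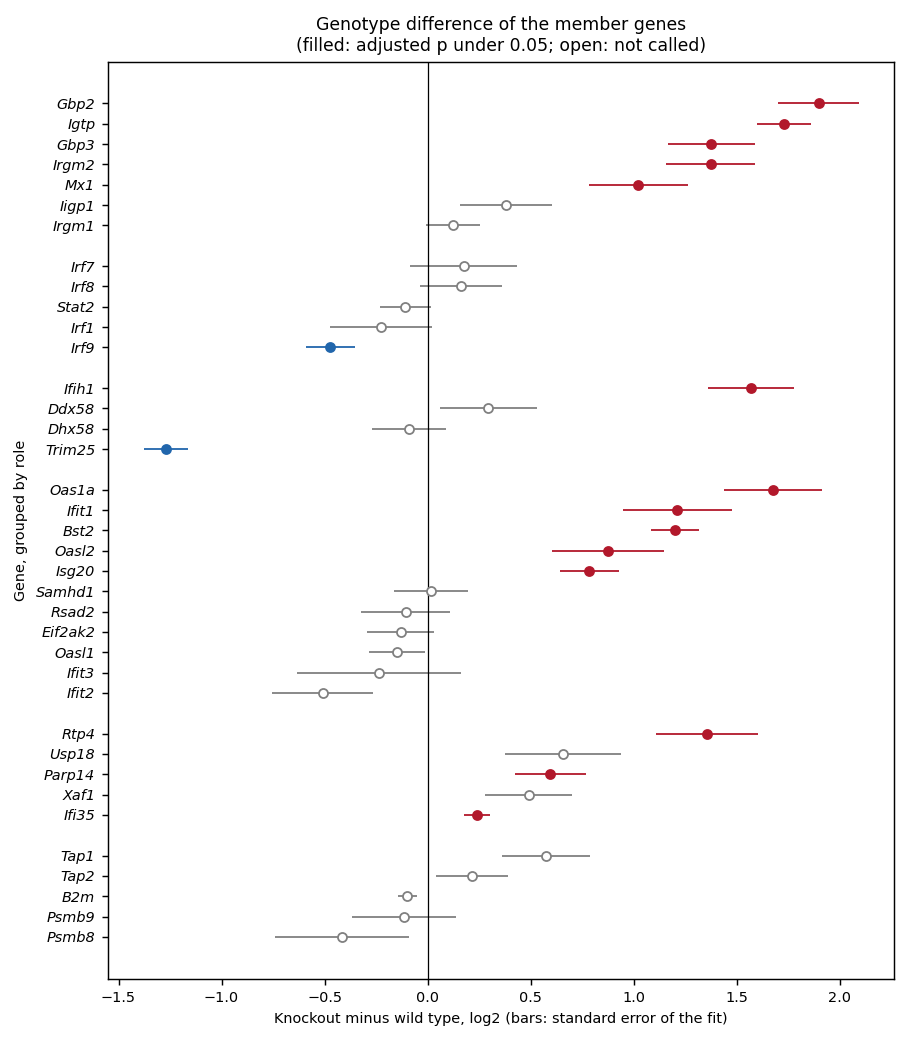
Knockout minus wild-type difference on the log2 scale (x axis) of the 37 tested members, with bars for the standard error of the limma fit over 16 arrays and filled points for an adjusted p under 0.05. The 14 filled points to the right of 0 include 5 GTPases, the 2 to the left are Irf9 and Trim25, and the 5 antigen presentation genes are all open.

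Other cell types could carry such genes, so their markers are given beside this count. Of 12 leukocyte and macrophage markers 7 were tested and 1 was called, Cd14, a bacterial lipid receptor (0.44). The defining leukocyte marker Ptprc (CD45), and Itgam, Fcgr1 and Cd3e, did not pass the filter. The summed signal of the leukocyte list was 543 to 971 on wild-type and 847 to 1407 on knockout arrays, most of it from Cd14 and Csf1r. Of 7 endothelial markers 3 were tested and 0 called by limma (1 at an unadjusted p under 0.05), and Pecam1, Cdh5, Tie1 and Vwf did not pass the filter. Of 8 mesothelial and epithelial markers 6 were higher and 1 lower in the knockout, with a summed signal of 1089 to 2315 in the wild type and 12301 to 14495 in the knockout. These sums moved with genotype, as did the 14 members, and their part in the members' difference was not tested. In cultures measured in bulk, fewer cells of a type and less RNA per cell cannot be told apart.

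The interferon-inducible GTPases had the largest median difference of the 6 role groups shown here: 5 of 7 tested were higher in the knockout and 0 lower, with a median difference of 1.37. Without Mx1, which was dim in the wild type, 4 of 6 were higher. Igtp (Irgm3) is an immunity-related GTPase. Its signals were from 28.3 to 68.9 (median 63.7) on the wild-type arrays and from 122 to 285 (median 189) on the knockout arrays. The difference was 1.73 (SE 0.13, adjusted p = 4.2e-06), and the groups did not overlap. Its neighbour on chromosome 11 among the genes of the array, Irgm2, a regulatory GTPase of the same family, ran from 7.40 to 73.6 (median 45.9) on the wild-type arrays and from 70.3 to 155 (median 94.3) on the knockout arrays. Irgm2 was higher in the knockout at all 8 times, by 1.37 (SE 0.22, adjusted p = 7.2e-04), although the highest wild-type value exceeded the lowest knockout value. Irgm1, which guides these GTPases away from the cell's own membranes and lies apart from Igtp on the same chromosome, with Irf1 between them, did not pass the test. Its signals were from 707 to 1568 (median 1291) on the wild-type arrays and from 1181 to 1452 (median 1293) on the knockout arrays, with a difference of 0.12 (SE 0.13, adjusted p = 0.515). Iigp1 (Irga6), an effector GTPase of the family, was higher at 7 of 8 times without a call (0.38, SE 0.22, adjusted p = 0.231). Without the 60 and 480 min arrays Iigp1 was called, at 0.46.

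Gbp2, a guanylate-binding protein that coats pathogen vacuoles, gave signals from 21.9 to 70.7 (median 52.8) on the wild-type arrays and from 113 to 253 (median 218) on the knockout arrays. The difference was 1.90 (SE 0.19, adjusted p = 3.7e-05), with no overlap, and a second Gbp2 probe set gave 2.50. Gbp3, encoded 2 array genes away on chromosome 3, ran from 5.14 to 30.5 (median 21.5) on the wild-type arrays and from 29.9 to 80.2 (median 58.1) on the knockout arrays. It was higher in the knockout at all 8 times, by 1.38 (SE 0.21, adjusted p = 6.2e-04), and the groups overlapped only between 29.9 and 30.5. Mx1, a dynamin-like GTPase that traps viral ribonucleoproteins in mice with an intact allele, was dim. Its signals were from 2.18 to 21.3 (median 9.47) on the wild-type arrays and from 14.0 to 34.8 (median 23.6) on the knockout arrays, and 2 wild-type and 7 knockout arrays exceeded the filter signal. Mx1 was called at 1.02 (SE 0.24, adjusted p = 0.00784), but it entered the test through the knockout arrays.

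Of the 5 tested transcription factors of the pathway 0 were higher in the knockout and 1 was lower. That one was Irf9, the DNA-binding part of the complex formed after type I interferon, which ran from 136 to 205 (median 156) on the wild-type arrays and from 82.8 to 168 (median 122) on the knockout arrays. Irf9 was lower in the knockout at all 8 times, with a difference of -0.47 (SE 0.12, adjusted p = 0.012), with overlapping ranges. Its partner Stat2 ran from 25.4 to 59.7 (median 45.7) on the wild-type arrays and from 26.0 to 64.0 (median 39.1) on the knockout arrays, and the difference was -0.11 (SE 0.12, adjusted p = 0.551). Irf1, a factor induced by interferon gamma that acts on MHC class I genes, ran from 206 to 859 (median 462) on the wild-type arrays and from 207 to 497 (median 362) on the knockout arrays, with a difference of -0.23 (SE 0.25, adjusted p = 0.529). Irf7, which amplifies type I interferon production, ran from 19.4 to 58.9 (median 50.5) on the wild-type arrays and from 23.7 to 60.5 (median 51.7) on the knockout arrays, with a difference of 0.18 (SE 0.26, adjusted p = 0.653). For Stat2, Irf1 and Irf7 the genotypes overlapped. Irf8, a factor of myeloid cells, exceeded the filter signal on 3 of 16 arrays, and its difference was 0.16 (SE 0.20, adjusted p = 0.580).

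The RNA sensors split. Ifih1 (MDA5), a helicase that senses long double-stranded RNA, ran from 25.6 to 68.4 (median 37.3) on the wild-type arrays and from 66.6 to 212 (median 120.0) on the knockout arrays. It was higher in the knockout at all 8 times, by 1.57 (SE 0.21, adjusted p = 2.2e-04), and the ranges overlapped only between 66.6 and 68.4. The related helicase Ddx58 (RIG-I), a sensor of short RNA with free 5′ phosphates, ran from 73.6 to 325 (median 232) on the wild-type arrays and from 158 to 298 (median 253) on the knockout arrays and was not called (0.30, SE 0.23, adjusted p = 0.379). Dhx58 (LGP2), a helicase of the same family that regulates both, ran from 15.2 to 25.6 (median 20.6) on the wild-type arrays and from 7.08 to 29.8 (median 20.1) on the knockout arrays and was not called either (-0.09, SE 0.18, adjusted p = 0.750). Trim25, the ubiquitin ligase best known for activating RIG-I, went the other way. Its signals were from 179 to 344 (median 283) on the wild-type arrays and from 86.1 to 153 (median 105) on the knockout arrays, and no knockout array reached a wild-type one. The difference was -1.27 (SE 0.11, adjusted p = 9.1e-06). A second bright probe set gave -1.05, and the dimmest, above the filter on 4 arrays, gave -0.36 without a call.

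Of the 11 antiviral effectors 5 were higher in the knockout, 0 lower, and the median difference was 0.02. Among the 9 that were above the filter on at least 3 arrays of each genotype, which leaves out Oas1a and Oasl2, 3 were higher, Bst2, Isg20 and Ifit1, and the median difference was -0.11. Oas1a, which makes the oligoadenylate messenger that activates RNase L, ran from 8.29 to 30.1 (median 9.50) on the wild-type arrays and from 36.1 to 75.4 (median 59.3) on the knockout arrays. All knockout arrays lay above all wild-type arrays and the difference was 1.68 (SE 0.24, adjusted p = 3.6e-04), but only 2 wild-type arrays exceeded the filter signal. Bst2 (tetherin), a membrane protein that holds budding virus on the cell, ran from 139 to 253 (median 196) on the wild-type arrays and from 324 to 593 (median 486) on the knockout arrays. It was well above the filter on all 16 arrays, did not overlap between genotypes, and differed by 1.20 (SE 0.12, adjusted p = 2.8e-05). Isg20, an RNA exonuclease, ran from 268 to 589 (median 402) on the wild-type arrays and from 607 to 801 (median 704) on the knockout arrays, again without overlap, and differed by 0.79 (SE 0.14, adjusted p = 0.00174).

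The IFIT genes, which lie together on chromosome 19, did not move as one. Ifit1 ran from 9.64 to 115 (median 54.9) on the wild-type arrays and from 71.6 to 226 (median 122) on the knockout arrays. It was higher in the knockout at all 8 times, by 1.21 (SE 0.27, adjusted p = 0.00529). Ifit2 ran from 147 to 834 (median 465) on the wild-type arrays and from 123 to 515 (median 317) on the knockout arrays, with a difference of -0.51 (SE 0.24, adjusted p = 0.146) and a lower knockout value at 7 of 8 times. Ifit3 ran from 85.6 to 955 (median 556) on the wild-type arrays and from 111 to 846 (median 418) on the knockout arrays, with a difference of -0.24 (SE 0.40, adjusted p = 0.700) and again a lower knockout value at 7 times. The library labelled wild type 60 min was low in both. Without the 60 and 480 min arrays both were called lower in the knockout, Ifit2 at -0.50 and Ifit3 at -0.30, while Ifit1 was called higher by 1.03.

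The other effectors varied. The OAS-like gene Oasl2 was called higher (0.88, SE 0.27, adjusted p = 0.030) on dim signals from 1.16 to 17.4 (median 10.1) on the wild-type arrays and from 12.9 to 24.8 (median 20.5) on the knockout arrays, with 1 wild-type and 7 knockout arrays above the filter signal. The call was lost when the 15, 30, 60 or 240 min pair was left out. Its neighbour Oasl1 was not called (-0.15, SE 0.13). Neither were Rsad2 (viperin), which makes a chain-terminating nucleotide (-0.11, SE 0.22), nor Eif2ak2 (PKR), a kinase that halts translation on sensing double-stranded RNA (-0.13, SE 0.16). Samhd1, an enzyme that depletes nucleotides for reverse transcription, was not called on its brightest probe set (0.02, SE 0.18), while 1 of its 4 other tested probe sets gave -0.96 and was called. For Eif2ak2 a dimmer probe set was likewise called, at -0.58.

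Of the 5 other tested interferon-stimulated genes 3 were higher in the knockout and 0 lower. Rtp4, a chaperone of membrane receptors that also restrains RNA sensing, ran from 3.34 to 40.4 (median 30.3) on the wild-type arrays and from 41.6 to 104 (median 63.4) on the knockout arrays. The genotypes did not overlap and the difference was 1.35 (SE 0.25, adjusted p = 0.00177). Parp14, an ADP-ribosyltransferase, was higher by 0.59 (SE 0.17, adjusted p = 0.023), a call that was lost without the 15 or the 180 min pair. Ifi35, a protein that binds partners through its coiled coil, ran from 1348 to 1746 (median 1477) on the wild-type arrays and from 1543 to 2226 (median 1719) on the knockout arrays and was higher at all 8 times by the small amount of 0.24 (SE 0.06, adjusted p = 0.014). Usp18, the protease that removes ISG15 and dampens interferon receptor signals, ran from 3.13 to 30.0 (median 21.8) on the wild-type arrays and from 20.9 to 34.7 (median 28.8) on the knockout arrays without a call (0.66, SE 0.28, adjusted p = 0.106). Xaf1, linked to cell death after interferon, gave 0.49 (SE 0.21, adjusted p = 0.105), and was called at 0.46 without the 60 and 480 min arrays.

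None of the 5 antigen presentation members was called between genotypes by limma, and 1, Tap1, had an unadjusted p under 0.05. The genes Psmb9, Tap1, Psmb8 and Tap2 follow each other on the array's gene order within the MHC region of chromosome 17. Tap1, a subunit of the peptide transporter into the endoplasmic reticulum, ran from 21.8 to 95.2 (median 58.8) on the wild-type arrays and from 50.6 to 128 (median 81.4) on the knockout arrays. It was higher in the knockout at 7 of 8 times, by 0.57 (SE 0.21, adjusted p = 0.065), and by 0.59 with a call without the 60 and 480 min arrays. Its partner Tap2 ran from 78.7 to 203 (median 181) on the wild-type arrays and from 129 to 227 (median 187) on the knockout arrays and differed by 0.22 (SE 0.17, adjusted p = 0.387). The immunoproteasome subunit Psmb8 ran from 3.54 to 35.0 (median 21.5) on the wild-type arrays and from 3.22 to 24.3 (median 12.8) on the knockout arrays, with 6 wild-type and 2 knockout arrays above the filter signal, and differed by -0.42 (SE 0.33, adjusted p = 0.372). The other subunit, Psmb9, ran from 11.2 to 42.8 (median 27.1) on the wild-type arrays and from 13.5 to 37.2 (median 26.3) on the knockout arrays and differed by -0.12 (SE 0.25, adjusted p = 0.770). B2m, the invariant chain of MHC class I, was bright, from 5339.9 to 6551 (median 5947) on the wild-type arrays and from 4996 to 6163 (median 5517) on the knockout arrays. It differed by -0.10 (SE 0.05, adjusted p = 0.140), and its second probe set gave -0.28 with a call. For all 5 genes the ranges of the genotypes overlapped.

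With the scaling as deposited, 16 members were higher and 1 lower in the knockout, and 14 of the 16 calls were shared. Ifi35 and Irf9 lost their calls, and Tap1, Usp18 and Xaf1 gained them. Under it the median over all tested genes went from -0.02 to 0.28 and the higher share of all calls from 54% to 87.9%. Relative to the median of all genes, the median of the members was 0.26 as normalized and 0.30 as deposited.

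**Figure D3:**
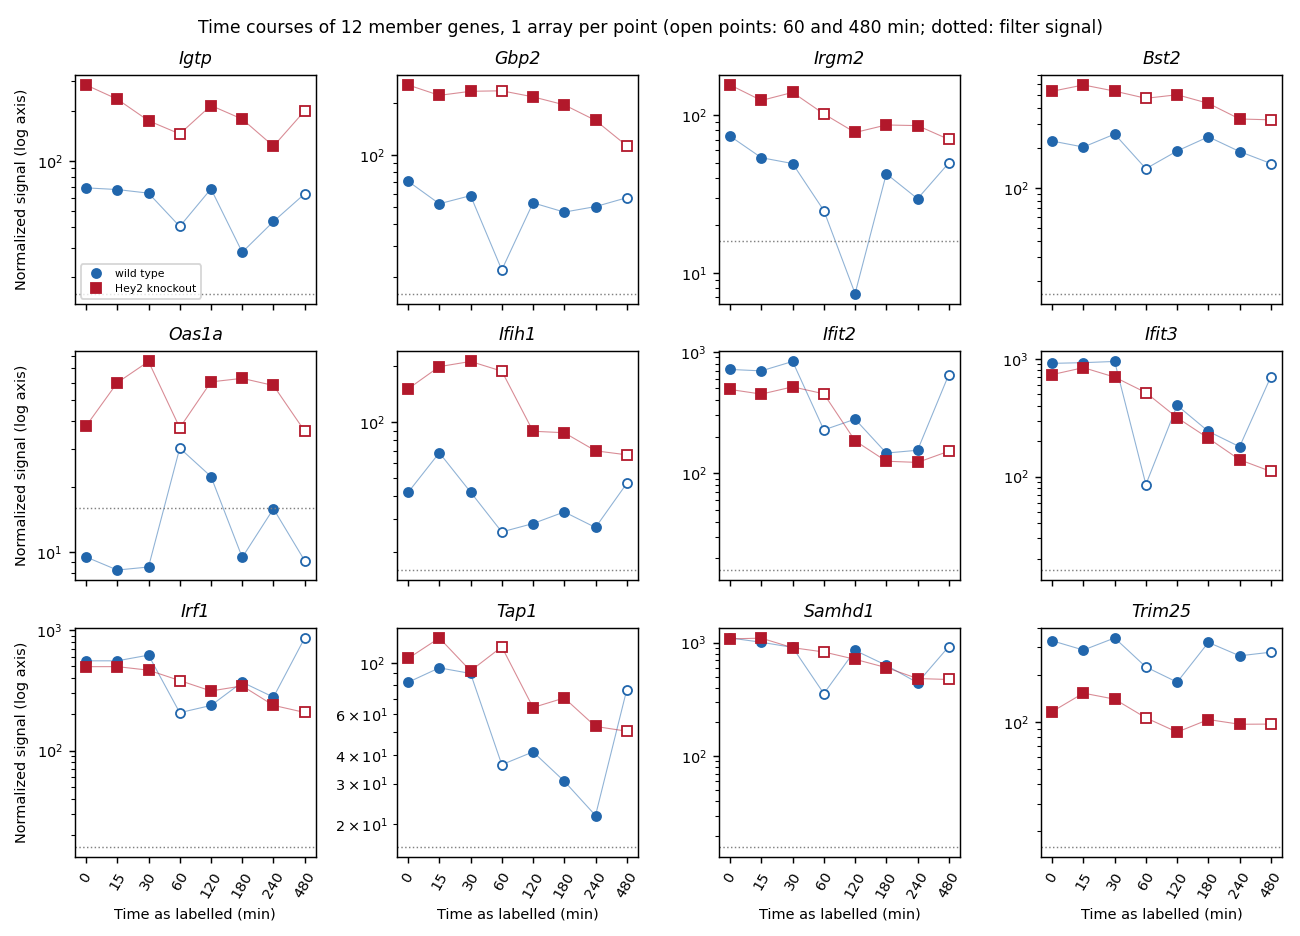
Normalized signal (log axis) of 12 members against labelled time in min, 1 array per point, wild type in blue circles and Hey2 knockout in red squares, with open symbols for 60 and 480 min and a dotted line at the filter signal of 16. The red series lies above the blue one at every time for Igtp, Gbp2, Irgm2, Bst2, Oas1a and Ifih1 and below it for Trim25, and Ifit2, Ifit3, Tap1 and Irf1 are lower at 120 to 240 min than at 0 to 30 min in both genotypes.

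The time course was read as the mean of 120, 180 and 240 min minus the mean of 0, 15 and 30 min, with 3 arrays per genotype and phase. By the probe set that stands for each gene, 0 members rose in either genotype and several fell. One other probe set of Trim25, above the filter signal on 4 of 16 arrays, was called higher late in the wild type, by 1.82 with limma adjusted p = 0.0013, while the probe set used gave -0.36 without a call. In the wild type 0 of 36 members were higher late (0 at an unadjusted p under 0.05 as well) and 13 were lower, where 15.7% of 13913 genes were called higher and 22.6% lower. In the knockout 0 were higher and 6 lower, where 8.96% of genes were called higher and 11% lower. The same 6 genes, Ifih1, Ifit2, Ifit3, Irf1, Samhd1 and Tap1, were lower in both genotypes, as were 9.44% of all genes. The median difference of the members was -0.50 in the wild type and -0.42 in the knockout, and that of all genes -0.06 and -0.08. Members below 0 numbered 31 and 32 of 36, against 7656 and 7998 of all 13913 genes. Cell type markers also moved with phase. Of 8 smooth muscle markers, 6 were called higher late in the wild type and 3 in the knockout, and 0 lower in either. Of 8 mesothelial and epithelial markers 3 were called higher late in each genotype, and 1 lower in the knockout. The summed mesothelial signal was 1089 to 1255 early and 1727 to 2315 late in the wild type, and 12673 to 13699 early and 12953 to 14495 late in the knockout. The summed leukocyte signal was 588 to 618 early and 734 to 971 late in the wild type, and 855 to 865 early and 956 to 1407 late in the knockout. The part of these markers' cells in the falls was not tested.

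Ifit2 had the largest fall of the members in the wild type. Its wild-type signals were 717, 698 and 834 at 0, 15 and 30 min and 279, 147 and 155 at 120, 180 and 240 min. In the knockout they were 491, 449 and 515 at 0, 15 and 30 min and 185, 126 and 123 at 120, 180 and 240 min. Early and late arrays did not overlap in either genotype, and the differences were -1.98 (SE 0.22, adjusted p = 1.5e-05) and -1.73 (SE 0.22, adjusted p = 1.2e-04). On the wild-type arrays Ifit3 read 919.9, 933 and 955 at 0, 15 and 30 min and 404, 243 and 179.5 at 120, 180 and 240 min. In the knockout it read 738, 846 and 703 at 0, 15 and 30 min and 317, 212 and 139 at 120, 180 and 240 min. Again all late arrays were below all early ones, with a difference of -1.83 (SE 0.28, adjusted p = 1.8e-04) in the wild type and -1.83 (SE 0.28, adjusted p = 5.2e-04) in the knockout. Ifit1, 3 array genes from Ifit3, fell in the wild type (-0.93, SE 0.26, adjusted p = 0.011) and gave -0.65 (SE 0.26, adjusted p = 0.093) in the knockout.

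On the wild-type arrays Tap1 read 82.4, 95.2 and 90.0 at 0, 15 and 30 min and 41.1, 30.7 and 21.8 at 120, 180 and 240 min. In the knockout it read 105, 128 and 92.4 at 0, 15 and 30 min and 64.1, 70.5 and 53.0 at 120, 180 and 240 min. The late arrays lay below the early ones in both genotypes, with a difference of -1.42 (SE 0.22, adjusted p = 1.9e-04) and -0.75 (SE 0.22, adjusted p = 0.026). No other antigen presentation member was called in either genotype: the wild-type differences were -0.37 for Tap2, -0.74 for Psmb8, -0.05 for Psmb9 and -0.15 for B2m. On the wild-type arrays Irf1 read 555, 555 and 619 at 0, 15 and 30 min and 237, 369 and 277 at 120, 180 and 240 min. In the knockout it read 497, 497 and 464 at 0, 15 and 30 min and 312, 344 and 237 at 120, 180 and 240 min. Irf1 fell by 0.98 (SE 0.17) in the wild type and by 0.71 (SE 0.17) in the knockout on the log2 scale, with adjusted p = 4.4e-04 and adjusted p = 0.00874. The other transcription factors were not called: Irf7 gave -0.25 and -0.27, Irf9 -0.35 and -0.52, and Stat2 -0.47 and -0.64, in the wild type and the knockout. A dimmer Stat2 probe set went the other way, at 0.35 and 0.40, neither called.

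Among the RNA sensors, Ifih1 on the wild-type arrays read 41.8, 68.4 and 42.0 at 0, 15 and 30 min and 28.5, 32.9 and 27.1 at 120, 180 and 240 min, with all late arrays below all early ones. In the knockout it read 151, 199 and 212 at 0, 15 and 30 min and 89.2, 87.6 and 70.0 at 120, 180 and 240 min, where the same held. The differences were -0.67 (SE 0.21, adjusted p = 0.024) and -1.13 (SE 0.21, adjusted p = 0.00237). Ddx58 fell in the wild type (-1.11, SE 0.22, adjusted p = 0.00159) and gave -0.52 (SE 0.22, adjusted p = 0.122) in the knockout. On the probe set used, Samhd1 was lower late in both, with a difference of -0.69 (SE 0.20, adjusted p = 0.015) and -0.78 (SE 0.20, adjusted p = 0.015). Its other tested probe sets gave -0.63, -1.18, -1.15 and -0.98 in the wild type, all but the first called. In the knockout, in the same order, they gave -0.56, -0.11, -0.61 and -0.96, with only the last called. The remaining members called in the wild type alone were Irgm2 (-1.21), Xaf1 (-0.84), Eif2ak2 (-0.78), Parp14 (-0.75) and Irgm1 (-0.57). Their knockout differences were -0.71, -0.57, -0.31, -0.63 and -0.06 in that order. The dimmer probe sets of Eif2ak2 did not fall in the wild type, at 0.24 and 0.07, neither called. Its wild-type call was lost with the mean of all tested probe sets. Among members higher in the knockout, Bst2 gave -0.14 and -0.41, Gbp2 -0.24 and -0.31, Isg20 0.03 and 0.14, and Oas1a 0.56 and 0.11, none of them called.

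**Figure D4:**
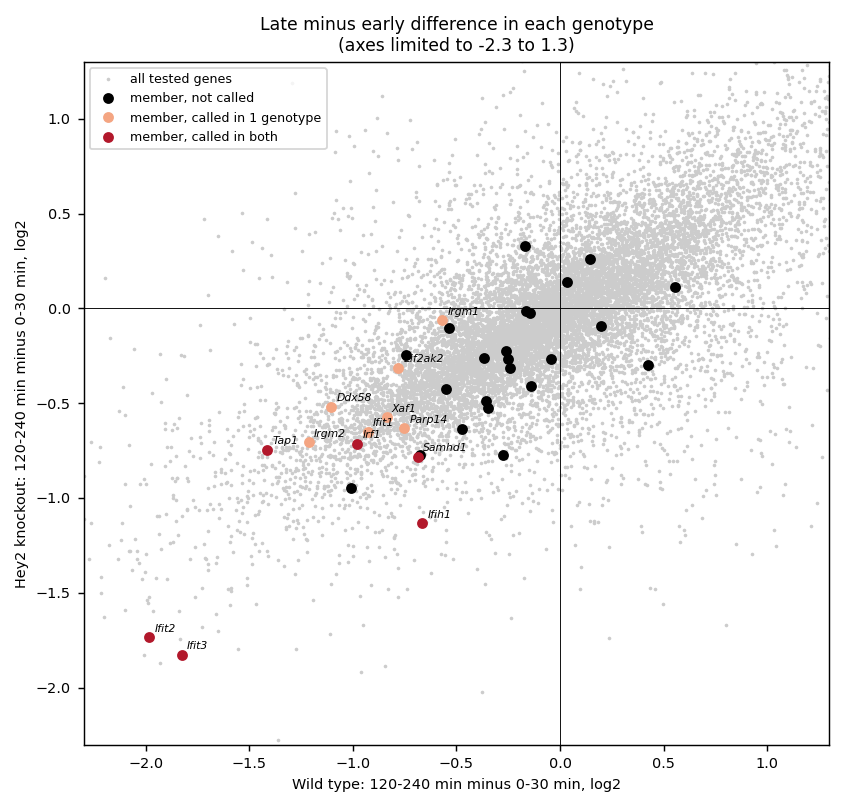
Difference between 120 to 240 min and 0 to 30 min on the log2 scale in the wild type (x axis) and in the knockout (y axis), for all 13913 tested genes in grey within axes limited to -2.3 to 1.3 and for the 36 tested members in black, orange (called in 1 genotype) or red (called in both). The 6 red members lie at the lower left, with Ifit2 and Ifit3 lowest.

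The number of falls called depended on scaling and on which times were used. With the scaling as deposited, which moved the median of all genes to 0.16 in the wild type and 0.15 in the knockout, only Ifit2 and Ifit3 were called in the wild type and 0 members in the knockout (limma). There 31 and 30 of 37 members lay below the median of all genes, as 30 and 29 of 36 did after normalization. With the 60 min arrays added to the early and the 480 min arrays to the late phase as labelled, 0 members were called lower in the wild type and 1, Ifih1, in the knockout. The median difference of the members was then -0.19 in the wild type and -0.49 in the knockout, so the knockout difference was no smaller than the -0.42 without these arrays, although its calls went from 6 to 1. In the knockout arrays alone, whose labels follow the time order, 0 to 60 min against 120 to 480 min gave 0 members higher and 17 of 35 lower, where 10.4% and 14.5% of 13210 genes were called. That comparison was chosen after seeing the data. As a measure of RNA quality, the 3′ over 5′ ratio of beta-actin control probes moved with phase in the wild type. This ratio was 2.60, 2.18 and 2.51 early and 1.57, 1.86 and 1.75 late. In the knockout it was 2.94, 3.44 and 1.97 early and 1.94, 2.49 and 1.66 late, with overlap between the phases. The same ratio of Gapdh control probes overlapped between the phases in the wild type, at 3.52, 2.92 and 3.26 early and 2.67, 3.34 and 2.87 late, and also in the knockout, at 3.60, 5.33 and 3.18 early and 2.69, 4.34 and 2.73 late. The part of RNA quality in the falls was not tested.

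Whether the falls differed between genotypes was tested directly, and 0 of 36 members were called higher or lower by limma. Among all 13913 genes, 0.309% were called higher and 0.467% lower. At an unadjusted limma p under 0.05 there were 2 of 36 members, against 1567 of all 13913 genes. Both members fell less in the knockout. On the wild-type arrays Irgm1 read 1530.3, 1540.0 and 1568 at 0, 15 and 30 min and 1125, 1157 and 865 at 120, 180 and 240 min. In the knockout it read 1373, 1263 and 1452 at 0, 15 and 30 min and 1311, 1265 and 1334 at 120, 180 and 240 min. The difference of differences was 0.51 with adjusted p = 0.179, and that of Tap1 was 0.67 with adjusted p = 0.430. A miss of the threshold does not show that the genotypes fell alike, and the 7 wild-type calls without a knockout call are not shown to be particular to the wild type.

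Members were also read library by library. The array labelled wild type 60 min held the lowest wild-type value of 18 of the 37 members, against 19.4% of all genes. Its 3′ over 5′ ratios of 1.49 for beta-actin and 1.41 for Gapdh were the lowest of the 16 arrays, where the other wild-type arrays gave 1.57 to 2.60 and 2.67 to 3.52, and their part in the low values was not tested. The knockout 480 min library held the lowest knockout value of 25 members, against 20.1% of all genes. For Ifit3 these values were 85.6 and 111. Its signal was 708 on the array labelled wild type 480 min and 518 on the knockout 60 min array.

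Other genes of the pathway are given by list, beside the 16.5% of all genes called higher and 14.1% called lower in the knockout. Of 8 tested interferon ligands and receptors 1 was higher and 3 lower in the knockout. The type I receptor chain Ifnar2 was higher (0.28, SE 0.09, adjusted p = 0.041) and its partner Ifnar1 lower (-0.26, SE 0.07, adjusted p = 0.021). The ligand-binding chain of the interferon gamma receptor, Ifngr1, was lower (-0.54, SE 0.12, adjusted p = 0.00663), as was the lambda receptor chain Ifnlr1 (-0.75, SE 0.18, adjusted p = 0.00855). Ifngr2, the second gamma receptor chain, gave -0.18 (SE 0.10) and Il10rb, shared by lambda and interleukin receptors, -0.25 (SE 0.09), neither called. The ligands were near the filter signal: Ifnb1 had a median signal of 15.7 in the wild type and 21.7 in the knockout (0.10, SE 0.20), and Ifna1 17.1 and 18.2 (0.44, SE 0.32).

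Of 12 other tested genes of JAK, STAT and IRF signalling 2 were higher and 2 lower. Irf5, a factor of inflammatory gene expression, was higher (0.92, SE 0.16, adjusted p = 0.0013), as was the kinase Jak1 (0.33, SE 0.10, adjusted p = 0.036). The phosphatase Ptpn2 (-0.25, SE 0.07, adjusted p = 0.016) and the feedback inhibitor Socs1 (-0.96, SE 0.31, adjusted p = 0.039) were lower, Socs1 on dim signals with medians of 10.8 and 2.90. Socs1 exceeded the filter signal on no knockout array, its highest there being 9.25, and so entered the test through the wild-type arrays. Of 8 other genes of nucleic acid sensing 1 was higher and 0 lower, the kinase Ikbke (0.94, SE 0.27, adjusted p = 0.021). The adaptor Mavs, through which RIG-I and MDA5 act, gave 0.34 (SE 0.17), the lipopolysaccharide receptor Tlr4 0.27 (SE 0.12) and the RNA-editing enzyme Adar 0.19 (SE 0.11), none called.

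Of 12 other genes of MHC class I presentation 3 were higher and 2 lower. The class I heavy chain H2-K1 was higher (0.51, SE 0.07, adjusted p = 3.3e-04), with medians of 983 and 1364 and no overlap between genotypes. The nonclassical chain H2-M3 (0.59, SE 0.15, adjusted p = 0.013) and tapasin, Tapbp, which holds the empty chain at the transporter (0.59, SE 0.12, adjusted p = 0.00294), were also higher. The chaperone Canx was lower (-0.15, SE 0.04, adjusted p = 0.013), as was Pdia3 (-0.21), which was chosen for naming after its values were seen. H2 genes are near-identical copies, so a probe set may read more than its own gene.

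Of 32 other interferon-stimulated genes outside the 40 members 11 were higher and 3 lower in the knockout, where 16.5% and 14.1% of all genes were called, and the median difference was 0.16 against -0.02 over all genes. Ifi27, a mitochondrial and nuclear membrane protein, was higher (1.03, SE 0.09, adjusted p = 9.9e-06), with medians of 1109.8 and 2241. Sp100, a nuclear body protein, was higher (2.10, SE 0.26, adjusted p = 1.3e-04) from a wild-type median of 9.58, below the filter signal. Lgals3bp, a secreted galectin-binding glycoprotein, was lower (-1.40, SE 0.14, adjusted p = 3.7e-05), as was Zc3hav1 (ZAP), which binds CpG-rich viral RNA (-0.63, SE 0.07, adjusted p = 6.3e-05). Lgals9 was also lower (-0.83) and was chosen for naming after its values were seen. Trim30a, among the 11 called higher, was likewise chosen for naming after its values were seen. With medians of 14.0 in the wild type and 30.6 in the knockout, it entered the test through the knockout arrays. The pathway lists were not restricted to genes above the filter in each genotype.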

How the data were processed

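RNA from 8 wild-type and 8 Hey2 knockout cultures was measured on 16 arrays. The deposited table holds linear intensities, 1 per probe set and array, which the submitters' processing notes credit to MAS5. Its version and scaling were not given in the sources used here. Genotype and time came from the sample titles.

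The arrays were quantile normalized over all 45101 probe sets, because their deposited brightness differed, and log2 was taken after adding 4.856, the 20th percentile of all values. Probe sets with several gene symbols (932) or none (9160) were left out. Each gene was represented by its brightest probe set above 16 on at least 3 arrays. Of the tested members, 12 had several tested probe sets.

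Models were fitted in limma 3.58.1 (R 4.3.3) with a variance trend on signal, and p-values were adjusted by Benjamini-Hochberg over all tested genes at 0.05. The genotype comparison had time as a factor on 16 arrays with 7 residual degrees of freedom, so time-matched cultures, treated in parallel per the labels, formed the blocks. The late minus early comparisons used 12 arrays in 4 groups with 8 residual degrees of freedom, the times inside a phase standing in for replicates. The fits were tested on simulated data. Standard errors are those of the fit. The alternatives changed the scaling, the offset, the filter, the probe set chosen, the variance trend, the block, the threshold or the times used.

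The members, the lists and the tests were chosen with earlier results of these data known. All members are named. From each other pathway list the interferon ligands and receptors, and up to 4 genes with the smallest genotype p, were named. Promoter sequences were matched by symbol in RefSeq, GRCm38.p6, and not every member's sequence was used here.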

Additional observations from a re-analysis of the deposited data

Results flagged for a closer look

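In 3 of 74 combinations of a tested member and a genotype, 1 array lay far from the other 7, by Dixon's test at its 95% critical value for 8 arrays. Chance flags about 1 in 20 groups, and the arrays of a genotype are different times, not repeats of 1 condition. Gbp2 read 21.9 in the library labelled wild type 60 min, against 47.0 for the next lowest wild-type array. Psmb9 read 11.2 in the same library, against 24.8 for the next lowest. Eif2ak2 read 110.4 in the knockout 0 min library, against 78.9 for the next highest knockout array. Without the 60 and 480 min arrays Gbp2 was still called higher in the knockout, by 1.85 on the log2 scale, and Psmb9 (-0.16) and Eif2ak2 (-0.06) were not called.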

How the results depend on the processing

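No member changed the sign of a called difference under the alternatives run. The genotype count of 14 higher ranged from 10 (2-fold threshold) to 17 (without the 60 and 480 min arrays). With no replicate block it was 14 higher and 2 lower, as with the block of time-matched arrays. Leaving out each time gave 12 to 17 higher and 2 to 3 lower, with Oasl2 and Parp14 the calls lost. Among members above the filter on at least 3 arrays of each genotype, a restriction chosen after seeing the data, it was 11 higher and 2 lower. The count lower was 1 with the deposited scaling, 1 at 2-fold and 4 without the 60 and 480 min arrays. For late minus early in the wild type, 13 lower became 2 with the deposited scaling, 21 with arrays scaled to 1 trimmed mean, 5 at 2-fold and 0 with the 60 and 480 min arrays added. In the knockout, 6 lower became 0, 12, 3 and 1 under the same alternatives, and 17 in the knockout arrays alone from 0 to 60 against 120 to 480 min, chosen after seeing the data. Leaving out each time gave 9 to 17 lower in the wild type and 3 to 11 in the knockout (3 without 0 min, 3 without 15 min, 11 without 120 min). The genotype by phase count stayed at 0 wherever it was run. Over all genes, 691 differed late minus early in the wild type with the deposited scaling (76.1% higher) against 5331 (41% higher) after normalization, and 226 (88.9% higher) against 2774 (45% higher) in the knockout. With arrays scaled to 1 trimmed mean, 5526 of 14017 genes were called in the wild type (34.5% higher) and 2741 in the knockout (40.4% higher). At 2-fold, 1537 of 13913 genes were called in the wild type and 597 in the knockout. With the 60 and 480 min arrays added, 260 and 75 of 14299 genes were called. Offset, filter, probe set choice and variance trend kept the counts of member calls within 1.5 times. The causes of these shifts were not tested. Signal over background limits Mx1, Oasl2, Oas1a, Psmb8, Rsad2 and Irf8, whose signals lay near or below the filter on many arrays.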

Other observations

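Among the 32 tested interferon-stimulated genes outside the 40 members, 12 were lower and 3 higher at 120 to 240 min than at 0 to 30 min in the wild type, and 8 were lower and 2 higher in the knockout. Among all genes 22.6% were called lower and 15.7% higher in the wild type, and 11% and 8.96% in the knockout. The genes that rose were chosen for naming after their values were seen. Ifi204, of the family of interferon-inducible proteins that bind DNA, rose by 0.95 (SE 0.22, limma adjusted p = 0.0035) in the wild type and 0.88 (SE 0.22, limma adjusted p = 0.012) in the knockout. Its relative Ifi202b rose by 0.43 (SE 0.13, limma adjusted p = 0.020) and 0.93 (SE 0.13, limma adjusted p = 3.2e-04). Cd274 (PD-L1), a checkpoint ligand on many cells, rose in the wild type by 1.02 (SE 0.31, limma adjusted p = 0.018) and gave 0.25 in the knockout without a call. None of the 3 differed between genotypes in this change by a called test (limma), and 1, Ifi202b, had an unadjusted p under 0.05. Ifi204 and Ifi202b are members of a family of similar genes, so their probe sets may share signal.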
